A study of Mus musculus with 4 samples.

Results

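A set of 10 genes whose transcripts were strongly reduced in thymocytes lacking Tox4 was followed through every stage of T cell development and into the non-T cells of the same thymi. They are Drc1, Crmp1, Esrp2, Khdrbs3, Smoc1, Gm32004, Tmem126a, Eci1, Ephb6 and Prss2, 10 of the 32285 genes in the files. Each was called lower in Tox4 conditional knockout (cKO) than in control libraries in at least one stage from DP blasts to single positive cells, and was taken up with fold changes in these stages and in all double positive cells known. They are not the 10 largest reductions, and in all double positive cells 3 other genes stood before the first of them. The values of those contrasts are therefore given as a description, without p-values. The early double negative cells and the cells outside the T lineage played no part in that choice.

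Single-cell RNA libraries were made from thymocytes with the 10x Chromium 3′ kit, which tags each captured transcript with a unique molecular identifier (UMI) near its poly(A) tail. The 2 control libraries came from mice with the genotype Tox4;F/F, in which both Tox4 alleles are floxed, and the 2 cKO libraries from Tox4;F/F;Lck+ mice, which carry the same floxed alleles and in addition a Cre recombinase driven by the proximal Lck promoter. Controls were littermates, the mice were studied as 2 pairs of control and cKO, and they were 6 to 8 weeks old. The Cre acts from the DN3 stage onward, so the double negative cells of a cKO thymus mix cells before and after deletion, whereas B cells, macrophages and erythroid cells of the same thymus should keep Tox4.

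Thymocytes pass from CD4- CD8- double negative (DN) cells through rapidly dividing double positive (DP) blasts (DPbla) to small DP cells that rearrange the T cell receptor α locus (DPre). Those that receive a receptor signal (DPsel) then become CD4 or CD8 single positive cells (CD4SP, CD8SP). The 10 genes have no common pathway: Drc1 and Crmp1 act on the cytoskeleton, Esrp2 and Khdrbs3 bind RNA and regulate splicing, Smoc1 is secreted, Gm32004 is a non-coding transcript, Tmem126a and Eci1 are mitochondrial, Ephb6 is a cell surface receptor, and Prss2 is a trypsinogen gene embedded in the T cell receptor β locus.

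After filtering, 5648 and 8441 control cells and 7298 and 12027 cKO cells remained, with 24725252 to 41994009 UMIs per library. Any pair of libraries shared between 10 and 33 of the kept cell barcodes. The share of droplets above the mitochondrial limit was 48.3% and 46.1% in the libraries with replicate number 1 and 20.6% and 23.1% in those with number 2, so it moved with the number and not with the genotype. Cell classes were rebuilt from markers, and names such as "DPre" stand for "DPre-like". Levels are given as CPM, the UMIs of a gene per 1000000 UMIs of the same class and library. The 12 markers of the mononuclear phagocyte system (MPS) summed to between 27258 and 43374 CPM in that class and to at most 404 CPM in the alpha-beta T stages, the 8 B cell markers to between 14837 and 22757 CPM in the B class, and the 9 DPre markers to between 6911 and 7316 CPM in DPre. The DPre list also reached 2891 to 3661 CPM in DN and DPbla. CD4SP and CD8SP were weakly separated. The 9 CD4SP markers summed to 3061 to 3593 CPM in CD4SP and to 2659 to 3018 CPM in CD8SP. The 10 CD8SP markers summed to 2505 to 2690 CPM in CD8SP and to 1720 to 1991 CPM in CD4SP. In all DP cells the controls held Tox4 at 72.7 and 74.8 CPM against 56.1 and 60.3 CPM in cKO, a log2 fold change of -0.29 (SE 0.0994) that did not pass the test. The kit captures transcripts near their 3′ end, which in the annotation of Tox4 lies downstream of the floxed exons. Where the captured reads lie was not examined, so this value is no check of the deletion.

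The sequence just upstream of the annotated start was available in RefSeq (GRCm38.p6) for 7 of the 10 genes, in 9 windows of 250 bases. Esrp2, Khdrbs3 and Smoc1 had no entry. The windows differed in kind. Those of Ephb6 and of the first Crmp1 start were 76.8% and 75.6% G and C and held 5 copies each of the GC box GGGCGG, while that of Prss2 had 45.6% and a TATA box (TATAAA). The median over the 9 windows was 59.6%, against 52.4% over all 32851 windows in the table. The E box CAGGTG, read on both strands, stood in windows of 4 of the 7 genes, and these windows are shown because they are the longest list of the 10 genes to share one of the 5 motifs searched. They were picked after the fold changes were known. The E box is in capitals, and where it reads CACCTG it lies on the opposite strand.
Drc1, chr5:30281143-30281392, plus strand: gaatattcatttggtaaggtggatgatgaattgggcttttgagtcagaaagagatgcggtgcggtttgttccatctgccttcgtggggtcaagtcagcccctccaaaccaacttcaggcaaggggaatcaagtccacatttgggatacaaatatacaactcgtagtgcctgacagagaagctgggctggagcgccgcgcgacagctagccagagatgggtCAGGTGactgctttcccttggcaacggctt
Crmp1, second start, chr5:37245514-37245763, plus strand: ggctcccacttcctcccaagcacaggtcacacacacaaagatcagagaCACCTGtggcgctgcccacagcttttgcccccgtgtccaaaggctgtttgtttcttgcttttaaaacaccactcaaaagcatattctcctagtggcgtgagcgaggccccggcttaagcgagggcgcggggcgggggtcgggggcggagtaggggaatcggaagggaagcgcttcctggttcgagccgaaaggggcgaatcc
Gm32004, chr13:107565374-107565623, minus strand: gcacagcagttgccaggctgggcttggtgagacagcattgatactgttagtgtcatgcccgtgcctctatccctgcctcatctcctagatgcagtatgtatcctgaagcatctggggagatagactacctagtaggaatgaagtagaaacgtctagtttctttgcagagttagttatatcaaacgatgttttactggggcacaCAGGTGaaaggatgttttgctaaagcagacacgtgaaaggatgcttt
Prss2, chr6:41521526-41521775, plus strand: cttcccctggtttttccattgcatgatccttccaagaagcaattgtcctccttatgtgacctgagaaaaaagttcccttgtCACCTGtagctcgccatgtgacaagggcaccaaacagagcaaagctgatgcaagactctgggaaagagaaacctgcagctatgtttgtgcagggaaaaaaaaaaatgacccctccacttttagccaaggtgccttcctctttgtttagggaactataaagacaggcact

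This hexamer is common: 17.2% of all 32851 windows held it, against 5 of the 9 windows of the 10 genes, 2 of which overlap and share a site of Gm32004. The GC box stood in 4 of the 9 windows (Crmp1 with both starts, Eci1 and Ephb6) and in 32.7% of all windows. CCAAT occurred in the Drc1 window alone and in 33.8% of all, TATAAA in the Prss2 window alone and in 12.4% of all. TGTGGT, which is bound by Runx proteins, stood in none of the 9 and in 14% of all. These matches describe letters only.

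The 10 genes were expressed at different stages of normal development, so no single stage showed all of them at their highest level (plot of levels by stage). In control cells Esrp2, Smoc1 and Gm32004 peaked in DPre, Khdrbs3 in DPbla, Crmp1 in CD4SP, Tmem126a in CD8SP and Prss2 in DPsel. Ephb6 was highest in DPre and DPsel, whose control values overlapped, Eci1 in DN and CD4SP, which also overlapped, and Drc1 in CD8SP, DPre and DN, which overlapped as well. The DPbla values of Khdrbs3 were likewise not separated from those of DN and DPre.

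**Figure D1:**
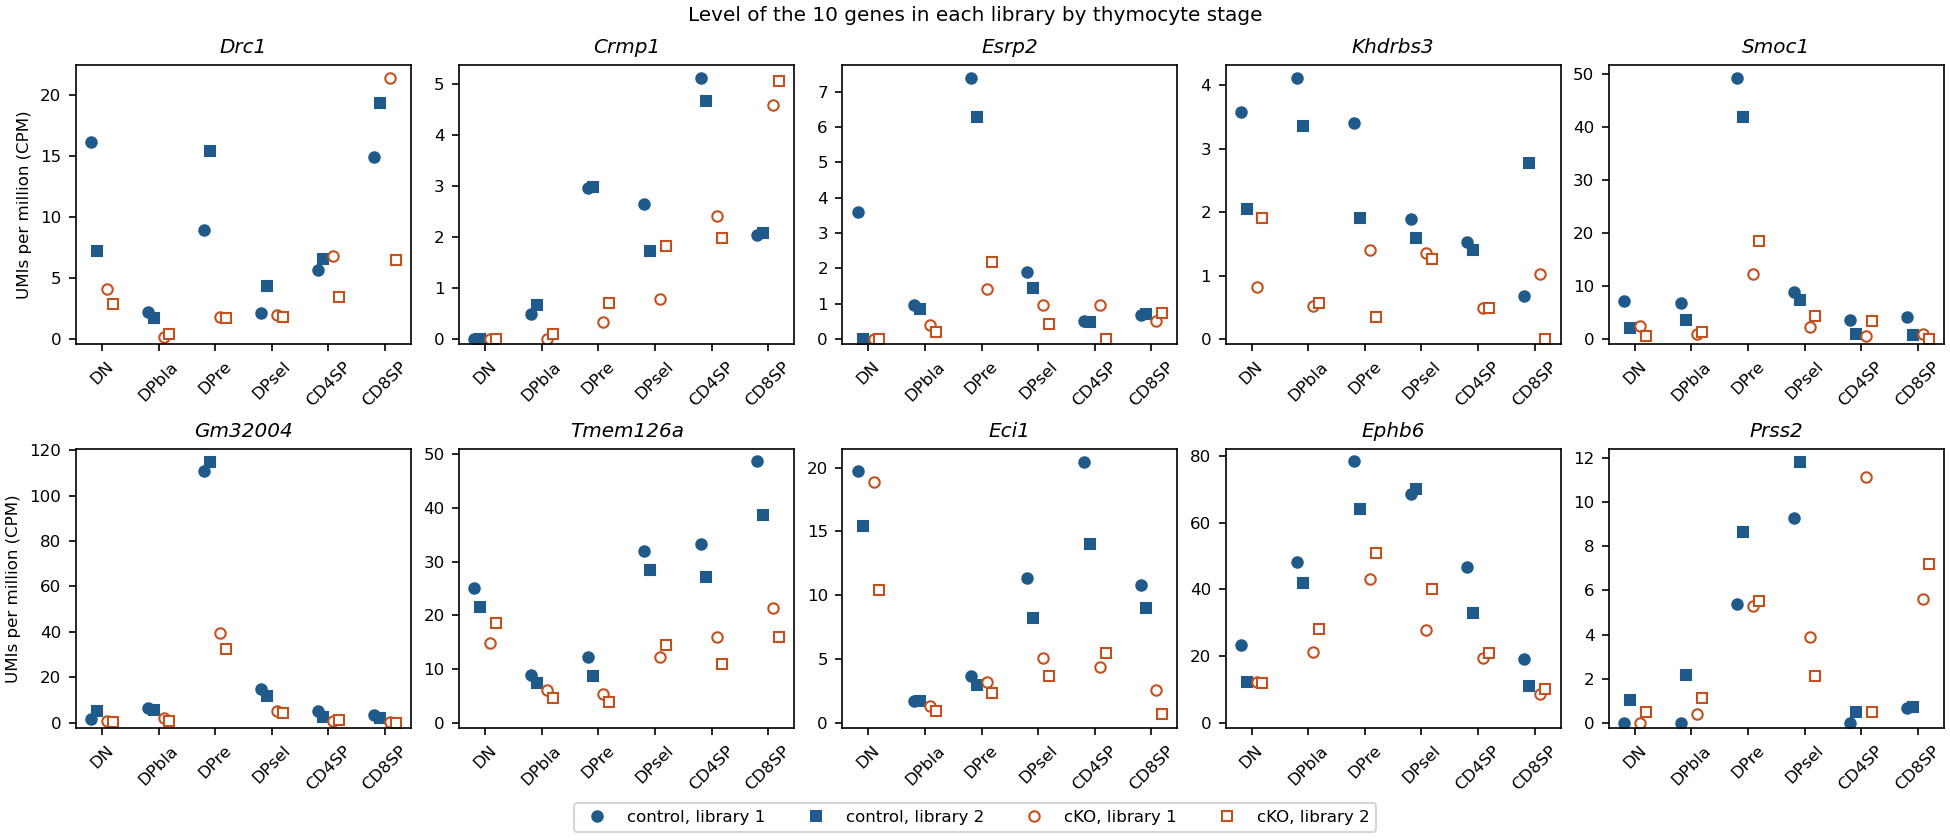
Level of each gene (CPM, linear axis; each panel has its own scale) in the 6 alpha-beta T stages, with 1 point per library: filled circles and squares for control 1 and 2, open ones for cKO 1 and 2. Drc1 is low in both cKO libraries in DPre (1.83 and 1.68 CPM), while in CD8SP one cKO library lies above both controls and the other below (21.4 and 6.50 CPM), and Eci1 overlaps between the groups in DPre and is lower in both cKO libraries in CD4SP (4.36 and 5.44 CPM) and CD8SP (2.55 and 0.722 CPM).

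In the 25296 DP cells as 1 class, the cKO libraries lay below the control libraries for all 10 genes. The median log2 fold change was -1.63, against -0.003 over the 12951 genes tested, and 9 of the 10, the exception being Eci1, were past an adjusted p of 0.05 in the lower direction. That was so for 1.99% of all tested genes, and 32.4% of tested genes had both cKO libraries below both controls. As the genes were chosen on this contrast, nothing follows from either count. With the replicate number as a block in the fit, Eci1 passed as well. Since the groups did not overlap, each cKO library was also below the control library with a like share of high-mitochondrial droplets. DP blasts held 4133870 and 5943087 of the 18483131 and 25938939 UMIs of this class in control. In cKO they held a larger part, 7633722 and 10587850 of 22057790 and 31998607. A value of all DP cells therefore mixes the level of a gene with the make-up of the stages, here and below. The part of the make-up was not tested.

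Drc1 encodes a subunit of the nexin-dynein regulatory complex, which holds axonemal dyneins in motile cilia and which lymphocytes are not known to use. It showed the largest reduction of the 10 in all DP cells. In DPre the controls measured 8.92 and 15.4 CPM, the cKO libraries 1.83 and 1.68 CPM. Both cKO values were far below both controls, with a log2 fold change of -2.78 (SE 0.309). The share of DPre cells with a Drc1 UMI was 2.68% and 4.08% in control and 0.518% and 0.379% in cKO, and after thinning every cell to 1000 UMIs 0.831% and 1.35% against 0.171% and 0.239%. DP blasts had 2.18 and 1.68 against 0.131 and 0.378 CPM, a log2 fold change of -2.67 (SE 0.657). These blast levels rest on 9 and 10 UMIs against 1 and 4, and at 1000 UMIs per cell on 2 and 1 cells against 0 and 1. After selection the distance was smaller, with 2.09 and 4.33 CPM in control DPsel against 1.95 and 1.83 CPM in cKO, and the -0.80 (SE 0.454) did not pass the test.

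In single positive cells the cKO libraries differed from each other, cKO 1 above both controls and cKO 2 below them. CD8SP cells had 14.9 and 19.4 CPM of Drc1 in control and 21.4 and 6.50 CPM in cKO, so that the groups overlapped, and the log2 fold change was -0.23 (SE 0.373). CD4SP cells had 5.63 and 6.55 against 6.78 and 3.46 CPM and also overlapped, with -0.27 (SE 0.469). By mean level CD8SP came first in both groups, although its values overlapped those of the next stage, and in cKO thymi DPre took the fifth place. The difference between stages was not tested.

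Crmp1, a collapsin response mediator protein that binds microtubules in growing axons, was the other cytoskeletal gene. DPre cells carried 2.97 and 2.99 CPM in control and 0.323 and 0.699 CPM in cKO, a log2 fold change of -2.39 (SE 0.438). These levels rest on 27 and 39 UMIs against 3 and 10. DPsel cells had 2.66 and 1.73 against 0.779 and 1.83 CPM, which overlapped, with -0.63 (SE 0.531). CD4SP, its highest stage in control, had 5.12 and 4.68 against 2.42 and 1.98 CPM, from 4 to 10 UMIs each, which was under the filter on low counts. In CD8SP the order was opposite, 2.03 and 2.08 CPM in control and 4.58 and 5.06 CPM in cKO, from 3, 3, 9 and 7 UMIs. Crmp1 had no UMI in any DN library.

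Esrp2 and Khdrbs3 regulate splicing, Esrp2 in epithelia and Khdrbs3 as a STAR family protein related to Sam68. Esrp2 was highest in DPre in control, with 7.38 and 6.28 CPM, and cKO DPre cells had 1.40 and 2.17 CPM. The log2 fold change was -1.84 (SE 0.297), and the share of DPre cells with an Esrp2 UMI was 2.32% and 1.69% against 0.421% and 0.494%, or 0.723% and 0.654% against 0.102% and 0.12% at 1000 UMIs. Khdrbs3 separated most in DP blasts, where 4.11 and 3.37 CPM in control stood against 0.524 and 0.567 CPM in cKO, a log2 fold change of -2.67 (SE 0.473). These levels rest on 17 and 20 UMIs against 4 and 6. The share of blasts with a UMI was 3.54% and 2.86% against 0.569% and 0.515%. At 1000 UMIs it was 0% and 0.168% against 0.142% and 0.172%, which overlapped. In DPre the 3.41 and 1.91 against 1.40 and 0.350 CPM of Khdrbs3 did not pass the test, with -1.67 (SE 0.527). In DPsel the 1.90 and 1.59 CPM of control lay close to the 1.36 and 1.27 CPM of cKO.

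Smoc1 encodes a secreted calcium-binding matricellular protein that modulates BMP signalling. It was strongly concentrated in DPre, with 49.2 and 41.9 CPM in control and 12.3 and 18.5 CPM in cKO, a log2 fold change of -1.50 (SE 0.164). The share of DPre cells with a Smoc1 UMI was 13.8% and 9.88% in control and 3.30% and 3.94% in cKO, and 5.31% and 4.14% against 1.23% and 1.93% when thinned. DP blasts had 6.77 and 3.53 against 0.917 and 1.32 CPM, with -2.05 (SE 0.426). DPsel cells had 8.92 and 7.35 against 2.34 and 4.36 CPM, and this difference of -1.21 (SE 0.320) did not pass the test.

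Gm32004, annotated as a processed transcript on the minus strand of chromosome 13 (107524061 to 107565331, GRCm38), was seen in a larger share of DPre cells of the control libraries than any other of the 10. DPre cells held 111 and 115 CPM in control and 39.3 and 32.5 CPM in cKO, a log2 fold change of -1.62 (SE 0.122). In control 24.9% and 22.9% of DPre cells had a UMI, in cKO 9.71% and 6.54%. At 1000 UMIs per cell these shares were 9.72% and 10.4% against 3.76% and 3.19%, so the separation was present at equal depth. DPsel cells had 14.8 and 12 against 5.06 and 4.50 CPM (log2 fold change -1.47, SE 0.244), and DP blasts 6.29 and 5.55 against 2.23 and 0.567 CPM (-2.13, SE 0.452). In single positive cells 0 to 10 UMIs per library were counted, too few to pass the filter.

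The mitochondrial genes were low in cKO cells late in development too. Tmem126a encodes an inner membrane protein that takes part in the assembly of respiratory complex I. Its level in control was lowest in DP blasts and DPre, which overlapped, higher in DPsel and CD4SP, which overlapped too, and highest in CD8SP, and the cKO libraries were below the control libraries at every stage. CD8SP cells had 48.8 and 38.8 CPM in control and 21.4 and 15.9 CPM in cKO, CD4SP cells 33.3 and 27.1 against 16.0 and 10.9 CPM, and DPsel cells 32.1 and 28.4 against 12.3 and 14.5 CPM. These groups did not overlap, and the log2 fold changes were close to each other: -1.23 (SE 0.247), -1.18 (SE 0.257) and -1.15 (SE 0.163). DPre cells, at 12.3 and 8.65 against 5.38 and 3.85 CPM, had -1.15 (SE 0.252) as well. Of CD8SP cells, 36.9% and 27.2% had a Tmem126a UMI in control and 16.1% and 10.5% in cKO, or 6.71% and 4.43% against 0.897% and 3.35% at 1000 UMIs. In DP blasts the 8.95 and 7.40 against 6.03 and 4.63 CPM did not pass the test, with -0.57 (SE 0.261).

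Eci1 encodes an enoyl-CoA isomerase needed to burn unsaturated fatty acids in mitochondrial β-oxidation. In CD4SP it measured 20.5 and 14 CPM in control and 4.36 and 5.44 CPM in cKO, a log2 fold change of -1.82 (SE 0.363). CD8SP cells had 10.8 and 9.0 against 2.55 and 0.722 CPM, from 16, 13, 5 and 1 UMIs, and their -2.46 (SE 0.593) did not pass the test. DPre cells showed no such separation. There the 3.63 and 2.99 CPM of control overlapped the 3.23 and 2.31 CPM of cKO, with -0.23 (SE 0.320), and DPsel lay between, with 11.4 and 8.22 against 5.06 and 3.66 CPM and -1.17 (SE 0.287), which did not pass the test.

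Ephb6 is a kinase-inactive ephrin receptor abundant in thymocytes. Its reduction was the smallest of the 10 in all DP cells, and the most even of the 4 genes that passed the filter in all 5 stages from DP blasts to CD8SP. DPsel cells had 68.5 and 69.9 CPM in control and 27.8 and 40.1 CPM in cKO, a log2 fold change of -1.0 (SE 0.155), and DP blasts 48.1 and 41.7 against 21.2 and 28.0 CPM, with -0.80 (SE 0.150). DPre cells had 78.5 and 64.2 against 43.2 and 50.8 CPM, with -0.55 (SE 0.126), and CD4SP cells 46.6 and 32.8 against 19.4 and 20.8 CPM, with -1.0 (SE 0.226). In CD8SP, with 19.0 and 11.1 against 8.66 and 10.1 CPM, the -0.73 (SE 0.380) did not pass the test, although the groups did not overlap.

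Prss2 behaved unlike the other 9, because its UMIs sat in few cells. In all DP cells 103 of 25296 cells held the 484 Prss2 UMIs, a mean of 4.70 per such cell and at most 29, while each of the other 9 genes had between 1.03 and 1.33 UMIs per cell in which it was seen (plot of UMIs per cell). Its level therefore turned on a small number of cells. DPsel had 9.30 and 11.8 CPM in control and 3.89 and 2.11 CPM in cKO, a log2 fold change of -1.87 (SE 0.318). These CPM values came from 8 and 8 control cells with 49 and 82 UMIs, and from 4 and 5 cKO cells with 20 and 15 UMIs. In DPre the 5.4 and 8.65 CPM of control overlapped the 5.28 and 5.52 CPM of cKO, with -0.36 (SE 0.259).

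The single positive cells gave the opposite order for Prss2, and it too rested on single cells. In CD8SP 1 UMI was counted in each control library and 11 and 10 in the cKO libraries, and in each of the 4 libraries all of them came from 1 cell. The CD4SP cells held 0 and 1 UMIs in control and 23 and 1 in cKO. Prss2 has close paralogs among the trypsinogen genes, and how the counting divided reads between them is uncertain. Of these 9 relatives in the files 1 passed the filter in all DP cells.

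**Figure D2:**
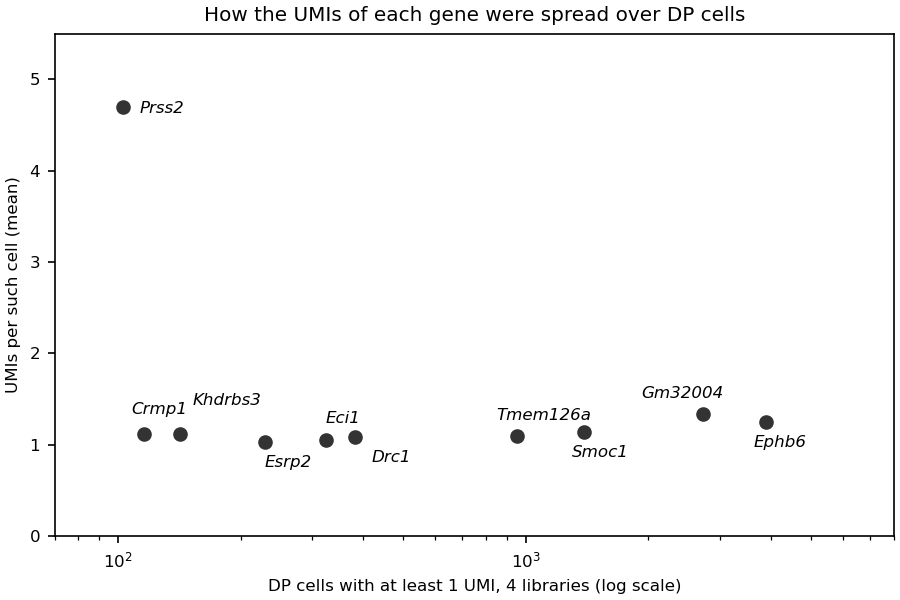
Mean number of UMIs per DP cell in which the gene was seen (linear axis) against the number of such cells over the 4 libraries (log axis), 1 point per gene. Prss2 stands at 4.70 UMIs per cell in 103 cells, and the other 9 genes between 1.03 and 1.33.

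The DP cells with Prss2 UMIs were also set beside the neighbouring receptor β genes. The variable segment Trbv31, which lies between Prss2 and Ephb6, had a UMI in 1 of the 54 cells with at least 2 Prss2 UMIs, in 1 of the 49 cells with a single one and in 0.730% of the 25193 cells with none. The constant gene Trbc1 was seen in 66.7%, 81.6% and 83.8% of these cells and Ephb6 in 13%, 20.4% and 15.4%, with median depths of 3155, 2969 and 2927 UMIs. These are cells of 4 libraries and were not tested.

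Counted by stage, the choice of genes shows which contrast brought each in (plot of fold changes). In DP blasts 5 of the 7 genes that passed the filter were called lower, beside 0.822% of all tested genes. In DPre it was 7 of 10 beside 0.75%, in DPsel 4 of 8 beside 0.0725%, in CD4SP 3 of 4 beside 0.188% and in CD8SP 1 of 4, Tmem126a, beside 0.0587%. Gm32004 was called in all 3 DP stages, Ephb6 in these and in CD4SP, and Tmem126a in all but the blasts. Drc1 and Smoc1 were called in DP blasts and DPre, Crmp1 and Esrp2 in DPre alone, Khdrbs3 in DP blasts alone, Prss2 in DPsel alone and Eci1 in CD4SP alone.

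At the edge of the choice the ranks were close in some stages. In all DP cells Cpe (-3.12), Klra5 (-2.54) and Fam131a (-2.52) stood before Drc1 (-2.50), and Acnat1 (-2.46), Trav2 (-2.36) and 4833412C05Rik (-1.94) between Drc1 and Crmp1 (-1.93), and 11 of the first 15 genes called lower are not among the 10. The value of Crmp1 there turned on single libraries, at -2.72 without cKO 2 and -1.52 without cKO 1. Among the genes called lower in DP blasts, Smoc1, with -2.05, was followed by Mycn with -1.85. In DPre Tmed1, at -1.93, ranked between Crmp1 and Esrp2 and is not among the 10, and Smoc1, at -1.50, was followed by Slit3 at -1.48. In DPsel Cxcr6, at -1.26, stood between Gm32004 and Tmem126a, and Ephb6, at -1.0, was followed by Gm26740 at -0.75. In CD4SP Gpr83 (-1.39) and Adam19 (-1.30) stood between Eci1 and Tmem126a, and Ephb6 was followed by Grk6 at -0.86. In CD8SP BE692007 (-1.53) and AB124611 (-1.29) stood before Tmem126a, which was followed by Bola2 at -0.89.

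**Figure D3:**
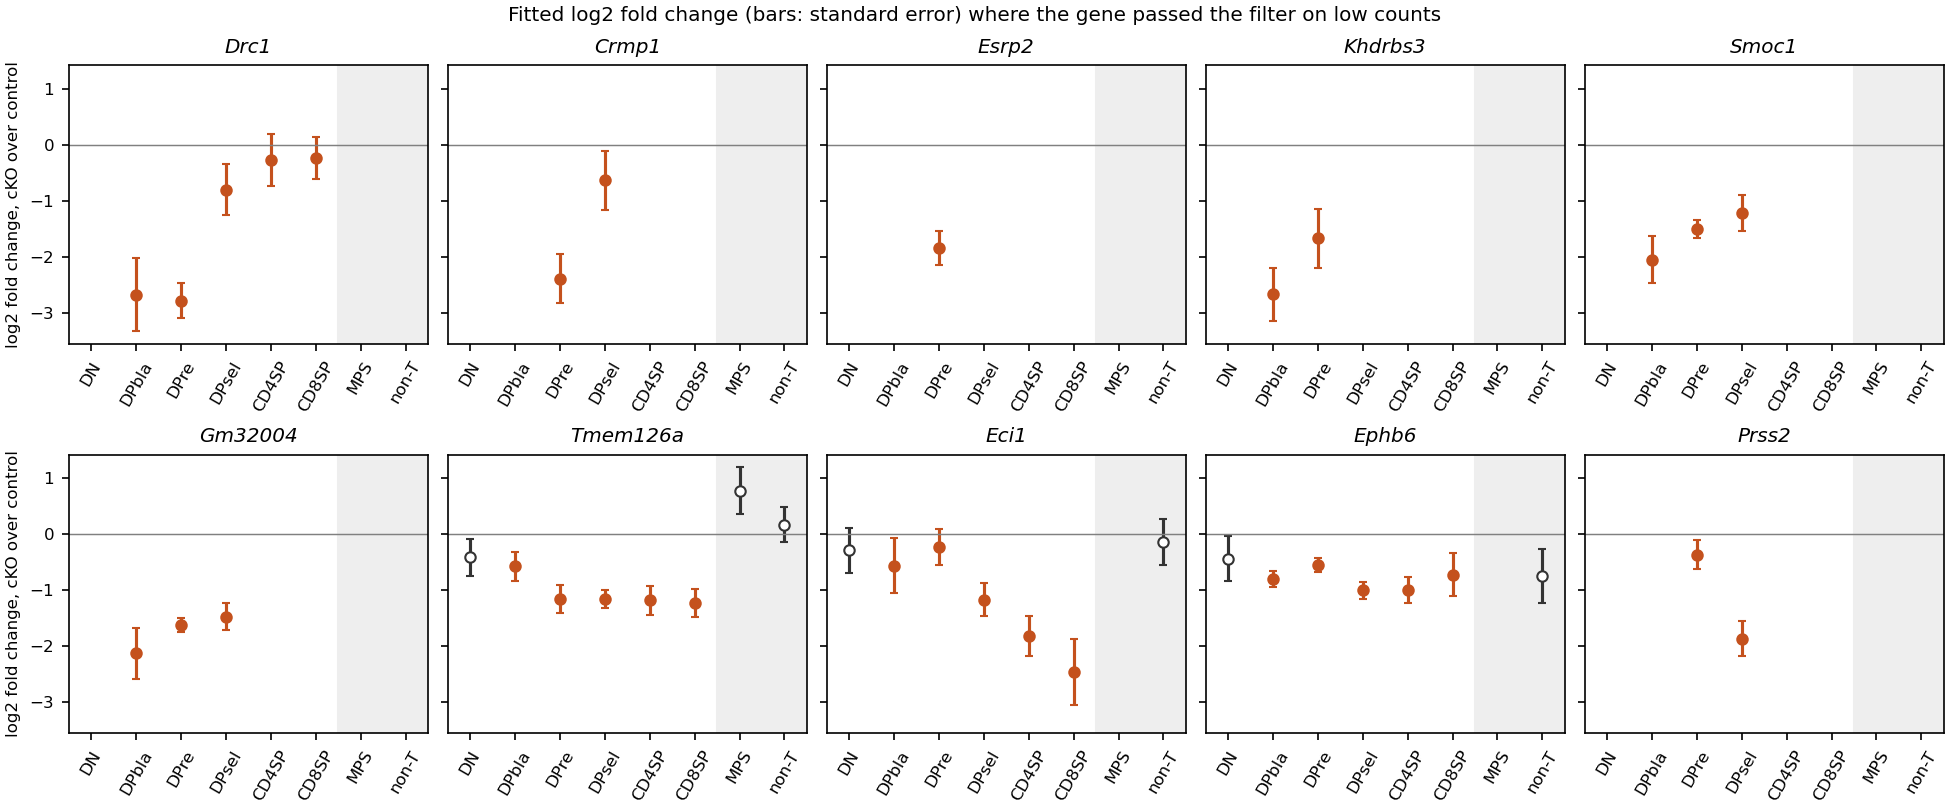
Log2 fold change of cKO over control (points) with its standard error (bars) in each cell class in which the gene passed the filter on low counts; filled points belong to stages on which the genes were chosen, open points to classes that played no part in the choice, and the grey field marks cells outside the T lineage. Drc1 lies at -2.78 in DPre and at -0.23 in CD8SP, Eci1 at -0.23 in DPre and at -2.46 in CD8SP, and Tmem126a at 0.78 in MPS.

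Within single clusters the picture differed between the genes. The alpha-beta T cells fell into 13 clusters, and Ephb6 had at least 10 UMIs in all 13 of them, with both cKO libraries lower in 10 and none with both higher. Tmem126a was lower in 10 of 11 such clusters, Smoc1 in 8 of 10, Gm32004 in 8 of 11, Eci1 in 5 of 10, Drc1 in 5 of 9, Khdrbs3 in 2 of 5 and Esrp2 in 3 of 3. Crmp1 was lower in 3 of 6 and higher in 1, and Prss2 lower in 1 of 10 and higher in 2. Over all genes and these clusters, 20.2% of the pairs of a gene with at least 10 UMIs and a cluster had both cKO libraries lower, 15.4% to 27.1% in single clusters. These clusters hold the cells the genes were chosen on, so the counts are a description. Prss2 was the one gene of the 10 that was lower in a single cluster only.

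Droplets left out of the classes for a high mitochondrial share were summed from the same 4 libraries. There 9 of the 10 genes had both cKO libraries below both controls, beside 26.4% of tested genes, and 5 were called lower, beside 0.244%. Gm32004 had 122 and 98.1 CPM in control and 38.9 and 17.7 CPM in cKO, a log2 fold change of -1.91 (SE 0.261). Tmem126a, which was called in all DP cells at -1.12, had 11.6 and 11.0 against 8.69 and 8.03 CPM here, and its -0.41 (SE 0.222) did not pass the test. Eci1 was the gene that overlapped, with 4.61 and 3.15 against 3.82 and 4.16 CPM. These droplets come from the same mice and are no new replicates.

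DN cells, which played no part in the choice, showed no call among the 10 genes. Only Tmem126a, Eci1 and Ephb6 passed the filter there. Tmem126a measured 25.1 and 21.6 CPM in control and 14.8 and 18.5 CPM in cKO. The groups did not overlap, but the log2 fold change of -0.42 (SE 0.324) had an adjusted p of 0.840 (edgeR quasi-likelihood test, Benjamini-Hochberg). Eci1 had 19.7 and 15.4 against 18.9 and 10.4 CPM, with -0.29 (SE 0.403, edgeR adjusted p = 0.925), and Ephb6 23.3 and 12.3 against 12.3 and 11.9 CPM, with -0.44 (SE 0.403, edgeR adjusted p = 0.881).

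The 7 genes below the filter in DN had at most 9 UMIs in any library. For Drc1 the DN libraries held 9 and 7 UMIs in control and 5 and 6 in cKO, which gave 16.1 and 7.19 against 4.11 and 2.85 CPM, again without overlap. Khdrbs3 (3.59 and 2.06 against 0.822 and 1.90 CPM) and Gm32004 (1.79 and 5.14 against 0.822 and 0.475 CPM) did not overlap either, from 1 to 5 UMIs each. Esrp2, Smoc1 and Prss2 overlapped, and Crmp1 had no UMI. Of the 3 genes tested 1, Tmem126a, did not overlap in the lower direction, beside 20.1% of the 8441 genes tested, and no gene at all was called lower in DN by edgeR, with 5 called higher (0.0592% called in either direction) and 649 genes at an unadjusted p under 0.05. These sums come from 59 and 98 control cells and 130 and 254 cKO cells, before and after deletion mixed. With 2 libraries in a group an exact two-sided permutation test of a single gene cannot go below 0.333, and the p-values here measure only the spread between these libraries.

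Whether non-T cells share the reduction could be examined for 3 of the 10 genes. The cells named as MPS, B or erythroid numbered 237 and 171 in control and 488 and 273 in cKO, 1169 in all, of which 923 were MPS. RNA of thymocytes was present in these droplets: the 18 thymocyte genes of a fixed list, among them Cd8a, Rag1 and Lck, summed to 24.1%, 19.1%, 28.9% and 21.6% of their level in DP cells of the same library. Each gene's UMIs were therefore set beside the number that this ratio would give (plot of UMIs in non-T cells). Tmem126a had 97 UMIs (95% Poisson interval 78.7 to 118, counting error only) where the ratio gives 6.17, and Eci1 52 (38.8 to 68.2) where it gives 2.10. Both stood far above what the ratio accounts for, and Ephb6, with 42 (30.3 to 56.8) beside 28.2, stood slightly above the ratio.

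Tmem126a and Eci1 overlapped between the groups in these cells. Tmem126a had 41.7 and 30.4 CPM in control and 38.0 and 42.2 CPM in cKO, a log2 fold change of 0.17 (SE 0.310, edgeR adjusted p = 0.993). In MPS alone it had 37.3 and 30 CPM in control and 51.6 and 65.1 CPM in cKO, from 10, 7, 24 and 25 UMIs, with 0.78 (SE 0.417, edgeR adjusted p = 0.998). There both cKO libraries were the higher ones, the order opposite to that in DP cells. The B class, too small for a test, had 63.6 and 36.7 against 37.3 and 27.7 CPM from 5 to 13 UMIs. B cells supplied 204540 and 163514 of the 575064 and 460532 non-T UMIs in control. In cKO it was 134024 and 180265 of 762758 and 710700, so values of all non-T cells mix level with make-up. In all non-T cells the following values were found. Eci1 had 19.1 and 26.1 against 22.3 and 16.9 CPM, with -0.14 (SE 0.410, edgeR adjusted p = 0.995). Ephb6 had 20.9 and 23.9 against 17.0 and 8.44 CPM, without overlap, and its -0.74 (SE 0.487, edgeR adjusted p = 0.939) did not pass the test. By library its 12, 11, 13 and 6 UMIs stood beside 9.53, 5.33, 7.06 and 6.26 by the thymocyte ratio, and Ephb6 was itself lower in cKO thymocytes. The part of thymocyte RNA in this order was not tested. Tox4 in the same cells was 50.4 and 58.6 against 28.8 and 46.4 CPM, with -0.50 (SE 0.308, edgeR adjusted p = 0.939).

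Across all genes edgeR called 0.0% lower in non-T cells and 0.0% in MPS, with 369 of 6630 and 185 of 4818 genes at an unadjusted p under 0.05. A missing call there is therefore no sign that a gene is equal in both groups, and the difference between T and non-T cells was not tested. Of the 3 genes tested in non-T cells 1, Ephb6, had both cKO libraries below both controls, beside 19.7% of all tested genes. In MPS it was 0 of 1, beside 14.6%.

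For the other 7 genes the UMIs in non-T cells lay within the counting error of what thymocyte RNA would give. Gm32004 had 18 UMIs (10.7 to 28.4) where the ratio gives 20.3, in the order 10, 5, 2 and 1 over control 1, control 2, cKO 1 and cKO 2, and Smoc1 had 5 (1.62 to 11.7) where it gives 8.82. Prss2 had 5 beside 2.67 by the ratio, Khdrbs3 2 beside 0.960, Drc1 1 beside 2.05, Esrp2 1 beside 1.32 and Crmp1 0 beside 0.694. Counts this low cannot tell thymocyte RNA from transcripts of the non-T cells themselves. Drc1 and Crmp1 were seen in 0 of 923 MPS cells, which allows a share of up to 0.325% of cells with a UMI (3 of 923 cells, the limit set for a count of 0), while 1.83% and 0.431% of DPre cells had one. The MPS cells were shallower, with median depths of 857 to 993.5 UMIs per library against 2209 to 3096 in DPre. At 1000 UMIs the shares were 0 of 382 MPS cells, which allows up to 0.785%, and 0.645% and 0.223% of DPre cells, all with both genotypes pooled. In the control libraries alone they were 0 of 144 MPS cells, which allows up to 2.08%, and 1.16% and 0.408% of DPre cells, so that for Drc1 and Crmp1 a difference between MPS and DPre was not detectable at equal depth. Among the same cells Smoc1 had 0 of 144 beside 4.58% of DPre cells, and Gm32004 0.694% beside 10.15%. Esrp2 had 0 of 144 beside 0.680%, while Khdrbs3 and Prss2, with 1 MPS cell each (0.694%), stood above their 0.245% and 0.299% in DPre. These differences were not tested.

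**Figure D4:**
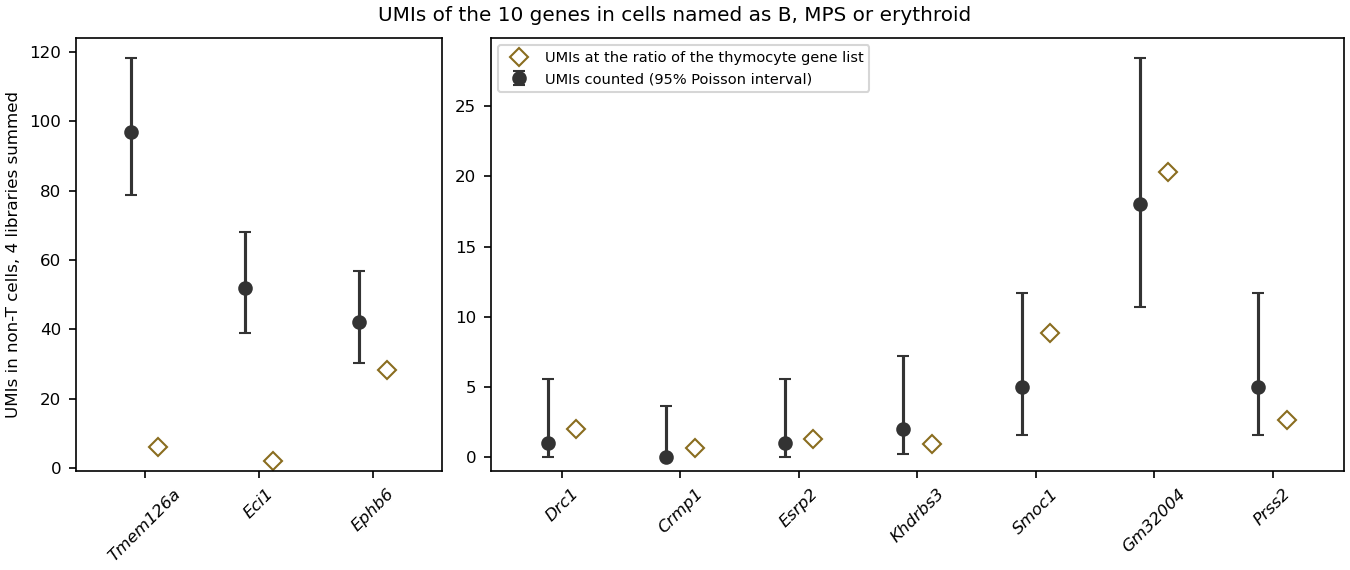
UMIs of each gene in the 1169 non-T cells of the 4 libraries (filled points, bars 95% Poisson intervals) beside the number expected if they came with the RNA of the thymocyte gene list (open diamonds), on linear axes that differ between the panels. Tmem126a (97 beside 6.17) and Eci1 (52 beside 2.10) stand far above the diamonds, Ephb6 (42 beside 28.2) slightly, and the bars of the other 7 genes include theirs.

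Of the genes within 200 kb of the 10, 44 passed the filter in all DP cells, and 2 were called lower by edgeR and 0 higher. That is 4.55% called lower, beside 1.99% of all tested genes, and the median log2 fold change was -0.11, beside -0.003 over all. The difference from all genes was not tested. Selenoi, an ethanolamine phosphotransferase gene 8961 bases from Drc1, had 38.5 and 54.4 CPM in control and 29.6 and 31.5 CPM in cKO, with -0.56 (SE 0.142, edgeR adjusted p = 0.0325). Jakmip1, near Crmp1, had 131 and 141 against 84.9 and 92.8 CPM, with -0.57 (edgeR adjusted p = 0.00432). Sytl2, near Tmem126a, had a like difference of -0.57 that did not pass (edgeR adjusted p = 0.0545). Tmem126b, a relative of Tmem126a that lies 10209 bases from it, had 19.6 and 16.5 against 15.6 and 14.1 CPM, with -0.23 (edgeR adjusted p = 0.391). The genes on either side of Eci1, Rnps1 and Dnase1l2, were 740 and 733 bases away and had 0.17 and 0.36, neither of which passed the test.

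Ephb6 (chr6, 41605482 to 41620509) and Prss2 (chr6, 41521787 to 41525079) are themselves neighbours, 80.4 kb apart on the plus strand, with the receptor β constant genes and Trbv31 between them. Trbc1 had -0.30 (edgeR adjusted p = 0.0619), Trbc2 -0.11 and Trbv31 -0.28 (edgeR adjusted p = 0.653), so none of the 3 tested genes between them was called. Drc1 and Crmp1 lie on one chromosome 6875 kb apart, and no other pair of the 10 shares a chromosome. Esrp2 overlaps Nfatc3 on the other strand, whose -0.02 was close to 0, and Crmp1 overlaps Evc on the other strand, which had at most 0.0453 CPM in any library.

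**Figure D5:**
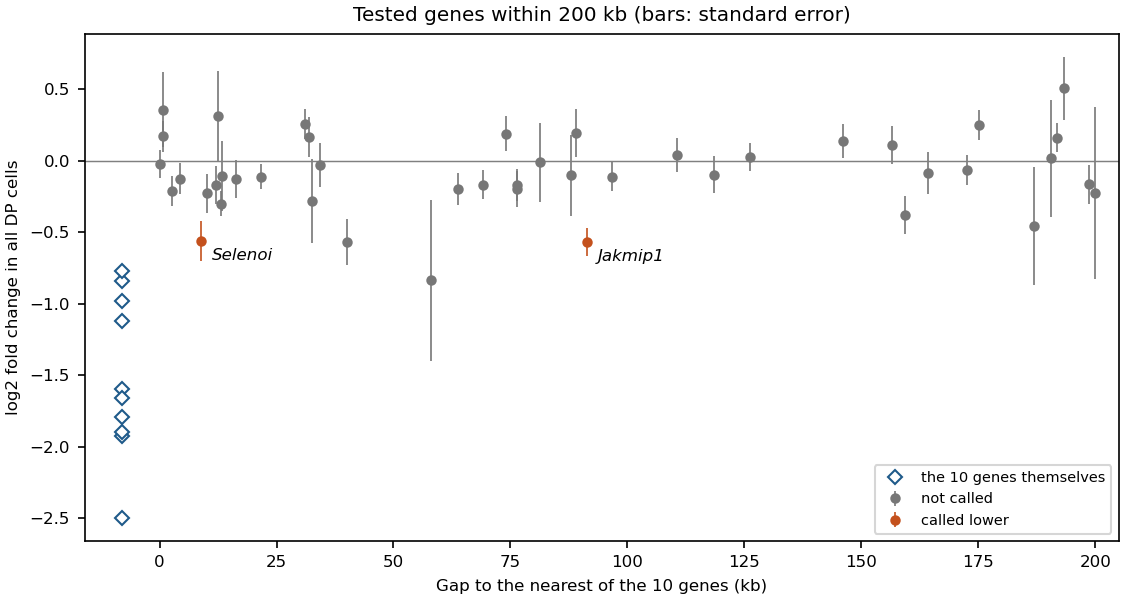
Log2 fold change in all DP cells (points, bars SE) of the 44 tested genes within 200 kb against the gap to the nearest of the 10 genes (kb), which are themselves drawn as diamonds left of 0. The 2 orange points (Selenoi at -0.56 and Jakmip1 at -0.57) were called lower, and the median of the neighbours is -0.11.

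Of 52 relatives of the 10 genes by family or pathway that passed the filter in all DP cells, 0 were called lower by edgeR, beside 1.99% of all tested genes. Of 17 complex I assembly factors tested in all DP cells 0 were called, with a median log2 fold change of -0.01, and of 17 genes of mitochondrial β-oxidation 0 were called and 12 had a negative sign, with a median of -0.16. Eci2, the second isomerase of that pathway, had -0.16 (edgeR adjusted p = 0.409). Dpysl2, the CRMP family member found in these cells, had -0.07, and Khdrbs1, which encodes Sam68, -0.01. Esrp1, Smoc2 and Try10 did not pass the filter.

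A pair of relatives was called higher, 3.85% of the 52 beside 3.2% of all tested genes. Ephb2, an ephrin receptor with an active kinase, had 2.22 and 2.27 CPM in control and 4.44 and 5.5 CPM in cKO in all DP cells, a log2 fold change of 1.20 (edgeR adjusted p = 0.00712). It was the only one of the 13 other ephrin receptors to pass the filter. The ephrin ligand gene Efnb1 had -0.33 (edgeR adjusted p = 0.625). Iqcd, which encodes another subunit of the nexin-dynein regulatory complex, had 2.49 and 2.35 against 4.31 and 4.16 CPM, with 0.86 (edgeR adjusted p = 0.0390). Of the 10 other subunits of that complex 5 passed the filter, and Gas8 among them had 12.2 and 11.7 against 12.2 and 9.72 CPM.

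The genes that resembled the 10 most in their course over control stages were picked without use of the cKO libraries. Likeness was taken as Pearson's r of log2(CPM + 1) over 12 points, 6 stages in each of 2 control libraries, among 11683 genes, and the points of a library share its depth. Pip5k1c, at r = 0.98, came closest to Gm32004 and had a log2 fold change of -0.09 in all DP cells, and Zfp512, at 0.98, came closest to Smoc1 and had -0.11. Rnf125 (0.92) was nearest to Drc1, Add1 (0.98) to Crmp1, Klk8 (0.96) to Tmem126a and Kbtbd11 (0.99) to Eci1, with log2 fold changes between -0.30 and 0.31. Of the 20 genes so named, 2 for each of the 10, 1 (5%, beside 1.99% of all tested genes) was called lower in all DP cells by edgeR: Mcu, the pore of the mitochondrial calcium uniporter, which was nearest to Ephb6 (0.97) and had -0.43. The most negative of the 20 were Gng2 (0.96 with Tmem126a) at -0.63, Gm12256 (0.98 with Gm32004) at -0.62 and Maff (0.95 with Esrp2) at -0.53, none of which passed the test. Among the 10 themselves Smoc1 and Gm32004 (r = 0.91), Esrp2 and Smoc1 (0.90) and Tmem126a and Eci1 (0.84) ran closest to each other.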

How the data were processed

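Thymocyte libraries of 2 control and 2 cKO mice were analysed. The authors processed the reads with Cell Ranger (6.1.1) on the mm10 mouse genome and deposited its filtered UMI counts for each gene in each cell, with a matrix for every library, with no normalization and no pooling. The files hold no columns of other samples.

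Cells with under 200 genes, with a UMI total among the highest or lowest 2.5%, or with over 10% mitochondrial UMIs were left out, as were the 5% with the highest Scrublet doublet scores (scanpy 1.11.5). Counts were scaled to 10000 per cell, and 3000 variable genes, reduced to 30 principal components computed without the 10 genes, were clustered (leidenalg 0.10.2, resolution 1) and named from marker lists. Clusters that mixed markers of several types stayed unnamed.

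UMIs were summed per library and class where every library had at least 30 cells, since cells are not replicates, and tested with edgeR's quasi-likelihood test (edgeR 4.0.16, R 4.3.3) with TMM scaling, filterByExpr and genotype as the only term. p-values were adjusted by Benjamini-Hochberg over all genes tested in a class, with calls under 0.05. CPM values are UMIs per 1000000 UMIs of the summed class, without a length correction, and compare one gene between samples, never genes with each other. Standard errors were derived from each log2 fold change and its F statistic. Shares of cells with a UMI were also taken on cells thinned to 1000 UMIs, leaving out shallower cells. The test was checked on simulated counts.

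The 10 genes and all lists (families, neighbours within 200 kb, thymocyte genes, markers) were chosen with earlier results of these data known. Other genes are named as neighbours, relatives, the 2 most alike per gene, or next in rank. Gene positions follow GRCm38 with GENCODE M21, promoter sequences RefSeq.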

Additional observations from a re-analysis of the deposited data

Results flagged for a closer look

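For 2 genes the cKO libraries lay on opposite sides of the controls in 2 cell classes, among classes with at least 10 UMIs of the gene and over 3 in each group. Prss2 showed such an order too, lower in DPsel and higher in CD4SP and CD8SP, where the limit left it out because each control held at most 1 UMI. Crmp1 was lower in both cKO libraries in DPre, with 2.97 and 2.99 CPM in control against 0.323 and 0.699 CPM in cKO, and higher in both in CD8SP, with 2.03 and 2.08 against 4.58 and 5.06 CPM. The log2 ratios of the means were -2.54 and 1.23, a difference of -3.77. The CD8SP values rest on 3, 3, 9 and 7 UMIs.

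Tmem126a was lower in both cKO libraries in DPsel, with 32.1 and 28.4 against 12.3 and 14.5 CPM, and higher in both in MPS, with 37.3 and 30 against 51.6 and 65.1 CPM. The log2 ratios were -1.18 and 0.79, a difference of -1.97. The MPS values rest on 10, 7, 24 and 25 UMIs. The difference between the classes was not tested for either gene, and both pairs were singled out after their values were seen among many pairs of classes.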

How the results depend on the processing

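In all DP cells the number of the 10 genes called lower stayed at 9 with DESeq2 or its size factors, with a mitochondrial limit of 20%, with 10% of cells removed as doublets and with finer clusters. It was 7 with a mitochondrial limit of 5% (9 tested), 6 with cells thinned to 1000 UMIs (9 tested) and 8 with the UMI extremes kept. It was 10 without a filter on low counts and 10, Eci1 included, with the replicate number as a block, where the median log2 fold change was -1.63. The mice were studied as 2 pairs, and the paper kept single-cell changes only if their direction was shared by both replicates. The paper does not say that the numbers in the library titles name its pairs. Libraries with the same number deviated from their group means together (Pearson's r = 0.32 across 12951 genes in all DP cells, genes not being independent). A pairing by number is therefore possible and was not tested. The block changed no call in DN, MPS or non-T cells. Leaving out a library gave 7 to 9 calls, with Prss2 lost without control 2, cKO 1 or cKO 2, Khdrbs3 lost without cKO 2, Crmp1 lost without cKO 1 and Eci1 gained without control 2. The median ranged from -1.79 to -1.48 over the alternatives and from -1.77 to -1.43 without 1 library. Of 138 recomputed fold changes of single genes in all DP cells, 23 moved by more than the spread between libraries and 0 turned.

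In DN, MPS and non-T cells 0 genes were called under every alternative that could be run, DESeq2 included. The median of the tested genes in non-T cells, -0.14, became -0.73 without a filter, when 9 genes entered, and 0.12 with a mitochondrial limit of 20%. Without 1 library it ranged from -0.84 to -0.031, and the lowest value was reached without cKO 1, when 4 genes passed the filter. With clusters of mixed non-T markers added, an alternative chosen after seeing the data, it was -0.24. Signs near 0 turned: Eci1 in non-T cells became 0.12 with the limit of 20% and ranged from -0.36 to 0.067 without 1 library, being positive without control 2 or cKO 2. Tmem126a there ranged from -0.031, without control 2, to 0.44, and Eci1 in DN from -0.69 to 0.17, without cKO 2. The cause was not tested. Some alternatives gave no value: with the limit of 5% DN kept 2 to 44 cells per library and could not be fitted, and none of the 10 genes passed the filter in MPS and non-T cells with that limit or in DN, MPS and non-T cells after thinning. Few UMIs limit Crmp1 and Khdrbs3 in every stage, Esrp2 outside DPre, Drc1 outside DPre and CD8SP, and Prss2 throughout.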
